A study of Mus musculus with 4 samples.

Results

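Ceruloplasmin (Cp), its membrane-bound relatives hephaestin (Heph) and zyklopen (Hephl1), the iron exporter ferroportin (Slc40a1) and its hormone hepcidin (Hamp) were followed across 4 lines of mouse LMTK- fibroblasts. These are 5 of the 18193 genes for which the array has a probe set naming only them. All probe sets that the platform annotation assigned to 1 of the 5 genes and to no other gene were taken. This gave 14 of 45101 probe sets, of which 8 measured Cp, 2 Slc40a1, 2 Hamp, 1 Heph and 1 Hephl1. Cp had been picked because its signals differed widely between the melanotransferrin clones, so its values in that comparison are a description and were not tested.

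The study asked which transcripts differ when mouse fibroblasts overexpress melanotransferrin, a relative of transferrin that binds iron and sits on the cell surface through a lipid anchor. LMTK- is a line of mouse L cells that lacks thymidine kinase. All 4 lines were stably transfected with the expression vector pCI-neo: vector 1 and vector 2 received it without an insert, and MTf 4 and MTf 6 are clones that received it with the mouse melanotransferrin cDNA (here the MTf lines). Total RNA of each line was hybridised to 1 Affymetrix mouse genome array, so each clone is represented by 1 array. Whether vector 1 and vector 2 were separate clones or cultures is not stated in the labels. No treatment or time point is given in the labels.

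Iron leaves mammalian cells as ferrous iron through ferroportin, the only known exporter of non-heme iron. Multicopper ferroxidases oxidise it so that it can be loaded onto transferrin: ceruloplasmin circulates in plasma or is held at the cell surface by a lipid anchor, hephaestin acts in the gut, and zyklopen is best known from the placenta. Hepcidin, made mainly by the liver, binds ferroportin and causes its internalisation and degradation. The liver is the main source of plasma ceruloplasmin, and other cell types, among them astrocytes and macrophages, also make it.

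Each value is a scaled array signal on a linear scale. Median signals lay between 209 and 215 on the 4 arrays, all 4 had the same 2%-trimmed mean of 1000.01, and between 15.7% and 17.8% of the signals of an array were under 32. Differences between lines are given as log2(signal + 32), which damps changes of dim probe sets, and probe sets with a mean signal under 206, the median of the array, were not tested. Of the members, 6 probe sets passed this filter, 5 of Cp and 1 of Hamp, and 8 did not. The probe set of the transfected gene, Meltf, was at 265 (vector 1), 274 (vector 2), 1519 (MTf 4) and 1885 (MTf 6), high in both lines labelled MTf. Its log2 difference, MTf minus vector, was 2.52 (SE 0.23; limma, adjusted p = 0.0911). Fibroblast genes such as Vim (74441 to 94073) and Col1a2 (24406 to 30047) were high in every line, while Thy1, Dcn and Lum, from the same marker list of 10 genes, were under the filter.

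Cp RNA was lowest in MTf 6 and highest in MTf 4 or vector 2, with vector 1 in between, by all 8 of its probe sets. The brightest, 1417494_a_at, gave 749 (vector 1), 2038 (vector 2), 2789 (MTf 4) and 65.3 (MTf 6). MTf 6 was thus 29.0-fold below MTf 4 on the scale of log2(signal + 32), and 42.7-fold below it by the signals themselves. All 8 Cp signals of MTf 6 were below 206, and they were not shown to be above background, so these folds are the ratios of the printed signals only. By 1417494_a_at vector 1 lay well above MTf 6 and well below the other lines, and both vector lines lay between the MTf clones. Whether fewer cells of MTf 6 carried the transcript or each cell carried less cannot be told apart from total RNA.

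The other tested Cp probe sets gave the same order of the lines. Signals of 1417495_x_at, in the order vector 1, vector 2, MTf 4, MTf 6, were 470, 1166, 1430 and 73.4. Those of 1417496_at were 404, 1022, 1148 and 161 in that order. Among them 1417496_at kept the highest signal in MTf 6, and its gap between the clones, 6.13-fold, was the smallest of the tested ones. Signals of 1448734_at were 282, 1045, 1238 and 93.4, and those of 1455393_at were 308, 626, 944 and 54.5. Over the 5 tested probe sets MTf 6 was below MTf 4 by a median log2 difference of -3.50, with a range from -4.86 to -2.62.

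The 3 Cp probe sets below the filter were also lowest in MTf 6, and 2 of them placed vector 2 above MTf 4. Signals of 1441326_at were 101 (vector 1), 409 (vector 2), 221 (MTf 4) and 52.6 (MTf 6). Those of 1417497_at were 102, 235, 134 and 14.9 in the same order. Vector 2 was therefore the highest line by 1441326_at and 1417497_at, and MTf 4 by the other 6. The dimmest, 1448735_at, was at 53.7, 164, 189 and 5.5. Of the 8 probe sets 6 were designed from the same sequence record and the other 2, 1455393_at and 1441326_at, from records of their own, and all 8 read the same 4 RNA samples, so they are not replicates.

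**Figure D1:**
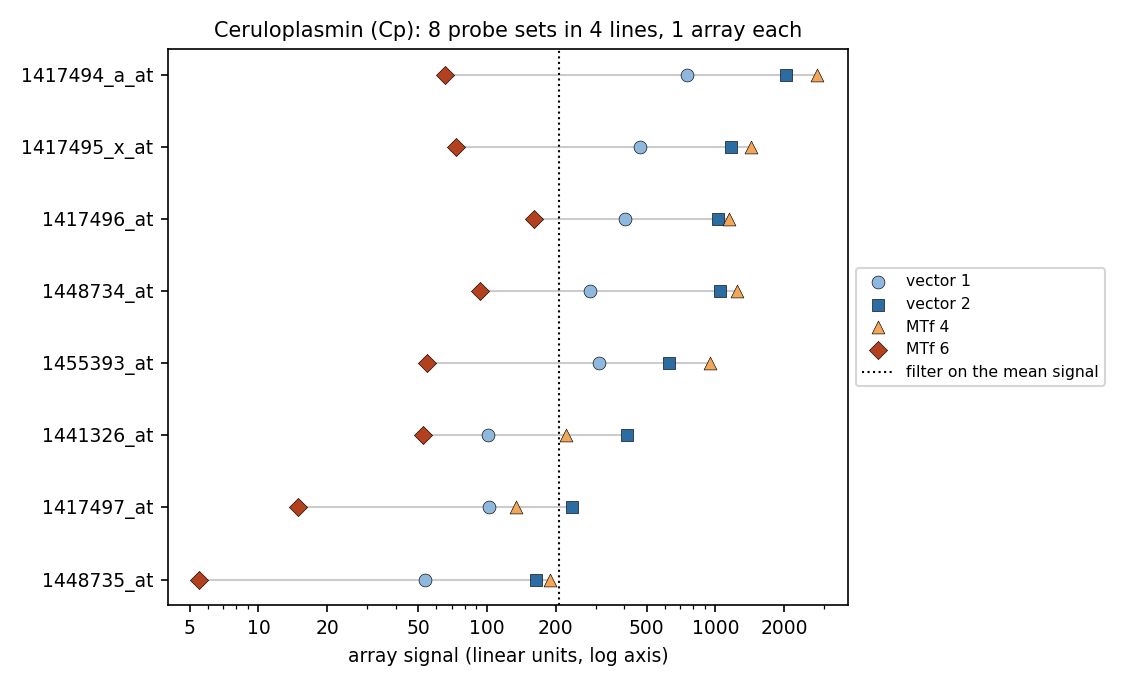
Array signals of the 8 ceruloplasmin probe sets (rows, by falling mean signal) in the 4 lines, 1 array each, on a log axis; symbols mark the lines, grey bars join the lowest and the highest line, and the dotted line is the filter on the mean signal (206). MTf 6 is the lowest line in all 8 rows, vector 1 comes next, and MTf 4 is the highest in 6 rows and vector 2 in 2.

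All 8 Cp probe sets differed at least 2-fold between the clones, as did 5.26% of the 22519 probe sets tested and 15.2% of all 45037 non-control probe sets. Cp was chosen on this contrast, so nothing is read from the count. The smallest of the 8 differences was 2.99-fold, by 1441326_at. In the same way 7 of the 8 were at least 2-fold lower in MTf 6 than in each of the other 3 lines (0.750% of the tested and 1.49% of all non-control probe sets), the exception being 1441326_at. Between MTf 4 and vector 2, in contrast, the log2 differences lay only between -0.80 and 0.57, and none of the 8 reached 2-fold.

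The vector lines, which carry no melanotransferrin cDNA, also differed in Cp. All 8 probe sets were higher in vector 2 than in vector 1, with log2 differences from 0.95 to 1.78 and a median of 1.26, or 2.40-fold. At least 2-fold higher in vector 2 were 4 of the 5 tested Cp probe sets, against 1.98% of all tested probe sets, and 6 of all 8, against 6.59% of all non-control probe sets. With 1 array per line this difference has no replicate check. The 8 probe sets read 1 gene in the same RNA, so nothing is read from their counts beside these shares. Cp thus varied between lines of the same construct in both groups, and for 1441326_at the vector difference (1.73) was larger in size than that between the clones (-1.58).

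The groups did not differ in Cp beyond the spread of their lines. By 1417494_a_at the signal was 1394 ± 911 (SD, n = 2) in the vector lines and 1427 ± 1930 (SD, n = 2) in the MTf lines. The log2 difference, MTf minus vector, was -1.28 (SE 1.34, 95% interval -4.41 to 1.85), with an adjusted p = 1.00 from limma over all tested probe sets. The other 4 tested probe sets had log2 differences between -0.98 and -0.51, each with an adjusted p = 1.00 in limma. The median of the 5, -0.70 over all lines, was -1.43 without vector 1 and -0.23 without vector 2. It turned to 1.04 without MTf 6. Without MTf 4 it was -2.45, where the MTf group is MTf 6 alone and is assumed to vary like the vector lines. Cp was chosen for the difference of MTf 6 from MTf 4, so nothing is read from this value. Of the 6 member probe sets tested on all 4 arrays 0 were called, against 0.00444% of all tested probe sets (1 of 22519, namely 1416295_a_at, which is unnamed here and was at 2084, 2519, 222 and 221 from vector 1 to MTf 6). An unadjusted p under 0.05 was reached by 0 of the 6, against 1.81% of all tested probe sets.

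Hephaestin RNA was at the bottom of the signal range in every line. Its only probe set, 1448696_at, gave 22.0 (vector 1), 15.3 (vector 2), 18.4 (MTf 4) and 32.9 (MTf 6). The MTf lines lay on both sides of vector 1, and the groups overlapped. Without the filter the log2 difference, MTf minus vector, was 0.18 (SE 0.34, 95% interval -0.63 to 0.99; limma, adjusted p = 1.00). MTf 6, the line with the least Cp, had the highest Heph signal, which was still close to 32, a level that 15.7% of the signals of its array did not reach.

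Hephl1, the gene of zyklopen, was also dim, and both MTf lines lay above both vector lines, as for 16.5% of the probe sets below the filter. By its probe set 1458680_at the signals were 73.9 (vector 1), 55.8 (vector 2), 98.1 (MTf 4) and 106 (MTf 6). MTf 4, the lower of the clones, exceeded vector 1, the higher of the vector lines, by 0.30 on the log2(signal + 32) scale. The log2 difference without the filter was 0.48 (SE 0.47, 95% interval -0.64 to 1.59; limma, adjusted p = 1.00), with an interval that includes 0.

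The probe sets of ferroportin, Slc40a1, disagreed about the direction of the difference between the groups. By 1417061_at the signals were 21.9 (vector 1), 16.7 (vector 2), 104 (MTf 4) and 127 (MTf 6). Both MTf lines were above both vector lines by this probe set, and they were close to each other. On the log2(signal + 32) scale MTf 4 was 1.33 above vector 1, the nearest pair, and both vector signals were under the offset of 32. By 1448566_at the signals were 58.6, 107, 32.5 and 47.3 in the same order, so here both MTf lines were below both vector lines, as for 16.7% of the probe sets below the filter. Both probe sets were designed from the same sequence record, and both were under the filter in mean signal (67.2 and 61.3).

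Neither ferroportin difference passed the test. For 1417061_at the vector lines had a mean signal of 19.3 ± 3.68 (SD, n = 2) and the MTf lines of 115 ± 16.1 (SD, n = 2). In the fit without the filter its log2 difference was 1.52 (SE 0.43, 95% interval 0.49 to 2.54), or 2.86-fold, with an unadjusted p of 0.0104 and an adjusted p = 1.00 from limma over 45037 probe sets. It was the only 1 of the 14 member probe sets with an unadjusted p under 0.05 in that fit, against 3.57% of all non-control probe sets. For 1448566_at the log2 difference was -0.65 (SE 0.47, 95% interval -1.77 to 0.47; limma, adjusted p = 1.00). Among the probe sets below the filter, 4.85% were, like 1417061_at, higher in both MTf lines than in both vector lines and at least 2-fold higher in the mean.

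Neither hepcidin probe set passed the test between the groups. Signals of its tested probe set, 1419197_x_at, were 271 (vector 1), 240 (vector 2), 239 (MTf 4) and 227 (MTf 6). They spanned a narrow range, and the groups met at MTf 4 and vector 2, which were almost equal. The log2 difference was -0.11 (SE 0.34, 95% interval -0.91 to 0.68; limma, adjusted p = 1.00). The suffix x marks a probe set whose probes may also match other transcripts. The second probe set, 1419196_at, was at 83.1, 187, 34.1 and 109 in the same order of lines, with a log2 difference of -0.71 (SE 0.61; limma without the filter, adjusted p = 1.00), and it was lowest in MTf 4, not in MTf 6. That difference was -0.17 without MTf 4, -0.25 without vector 2, -1.18 without vector 1 and -1.26 without MTf 6. The paralog Hamp2, which is no member, was at 33.7 to 216 by its 2 probe sets, all under the filter. Hepatocyte markers were low as well: 0 of 6 on the array passed the filter, and their summed signal was 390, 627, 335 and 440 in vector 1, vector 2, MTf 4 and MTf 6, with Ahsg between 10.6 and 35.2.

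**Figure D2:**
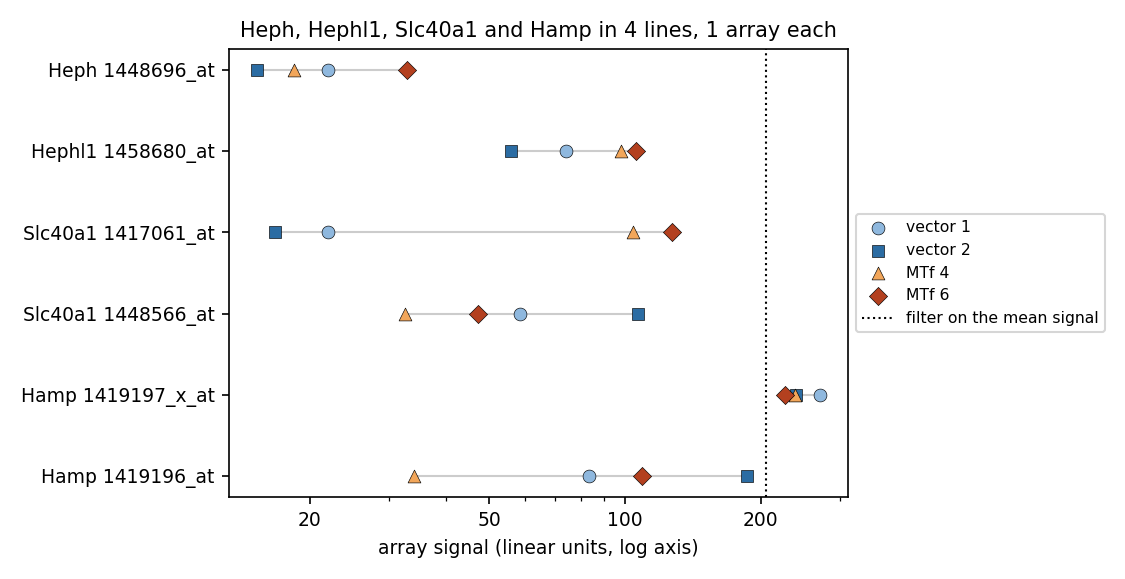
Array signals of the 6 probe sets of Heph, Hephl1, Slc40a1 and Hamp in the 4 lines, 1 array each, on a log axis, with the filter on the mean signal (206) as a dotted line. The MTf lines lie above the vector lines for Hephl1 and for Slc40a1 1417061_at, below them for Slc40a1 1448566_at, and among them for Heph and Hamp 1419196_at; 5 of the 6 rows lie below the filter.

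Vector and MTf signals were fully separate in 4 of the 14 member probe sets, 1 of Hephl1, 2 of Slc40a1 and 1 of Hamp, the last at 240 in vector 2 against 239 in MTf 4. That is 28.6%, against 29.4% of all non-control probe sets, 25.8% of the tested ones and 33.1% of those below the filter, a share near the background. None of these 4 measured Cp.

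The other members, which were not chosen on these contrasts, have the following differences within the groups, and nothing is read from setting them beside those of Cp. Between the clones 1 of the other 6 probe sets differed at least 2-fold, Hamp 1419196_at, which was 1.10 higher in MTf 6 on the log2 scale. Among all probe sets below the filter 25.1% differed at least 2-fold between the clones. Between the vector lines 0 of the other 6 reached 2-fold, against 13.9% of all non-control probe sets, and their log2 differences lay between -0.27 and 0.93.

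**Figure D3:**
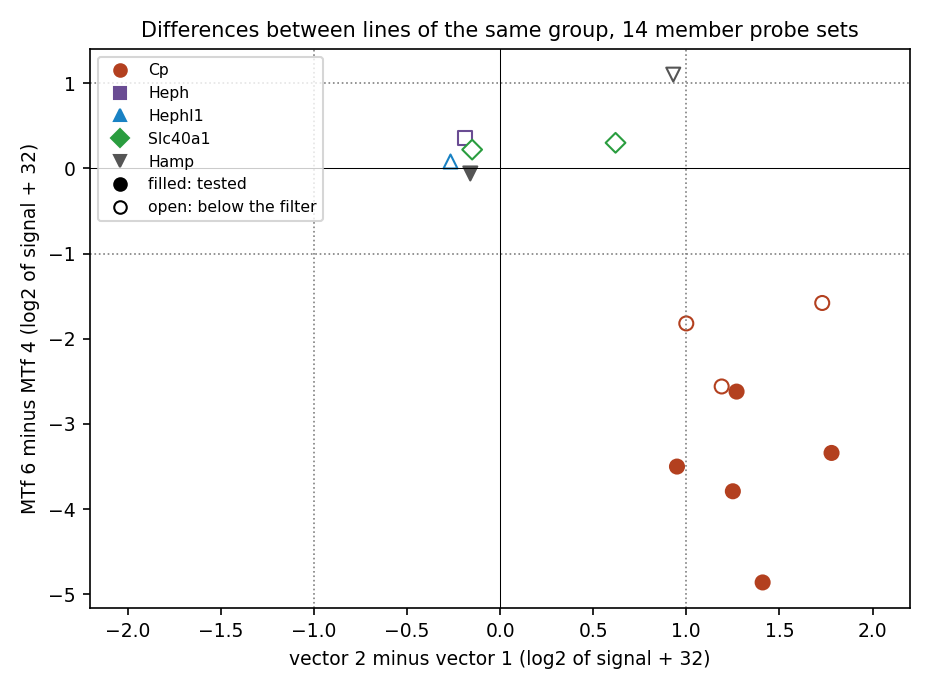
Log2 differences of the 14 member probe sets between the vector lines (x axis, vector 2 minus vector 1) and between the MTf clones (y axis, MTf 6 minus MTf 4), both on log2(signal + 32); filled symbols were tested, open ones were below the filter, and dotted lines mark 2-fold. The 8 Cp probe sets lie at the lower right, from 0.95 to 1.78 on the x axis and from -4.86 to -1.58 on the y axis, and the other 6 lie between -0.06 and 1.10 on the y axis.

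The tested probe sets of the genes beside Cp differed less than 2-fold between the clones. Cp lies on chromosome 3 of the mouse genome (GRCm38.p6) from position 19956933 to 20009750, and its 3' end shares 13806 bases with the span of Hps3, a gene of lysosome-related organelle formation. The 5 nearest genes with a probe set of their own on each side were taken. Of these 10 genes 6 had tested probe sets, 15 in all, and 0 of the 15 differed at least 2-fold between the clones. Their log2 differences, MTf 6 minus MTf 4, lay between -0.40 and 0.38, with a median of -0.01. Hps3 itself was at 1336, 1428, 1451 and 1454 in vector 1, vector 2, MTf 4 and MTf 6 by its tested probe set, so it was level across the lines.

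Further out, Hltf, a chromatin remodelling factor, was at 2045, 2386, 2241 and 2165 across these lines, and Gyg, the glycogen primer glycogenin, at 8405, 11843, 11277 and 8807. On the other side Mtfr1, a regulator of mitochondrial fission, was at 3134, 3093, 2047 and 2674. Among dim probe sets that were not tested, Cpa3, mast cell carboxypeptidase, was at 148, 181, 176 and 18.7, lowest in MTf 6 as Cp was, and 1 probe set of Hps3 went the opposite way, at 9.4, 7.7, 9.8 and 176. A dim probe set of 4632415L05Rik, the pseudogene next to Cp on the left, was at 76.5, 159, 95.6 and 15.0, the order of lines of Cp 1441326_at and 1417497_at. Its brightest probe set, which was tested, was at 482, 545, 551 and 411, the order of the other Cp probe sets at a smaller difference (-0.40 between the clones). Pde7a, a phosphodiesterase, was at 1156, 1481, 1328 and 1315 by its brightest probe set. The other neighbours were dim: Dnajc5b was at 286, 91.9, 127 and 220, Crh at 37.9, 55.7, 53.0 and 30.1, and Cpb1 at 12.3, 17.2, 12.6 and 25.4. Over the 526 measured genes of chromosome 3 the median log2 difference between the clones was -0.017, against -0.051 over all 10706 measured genes.

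**Figure D4:**
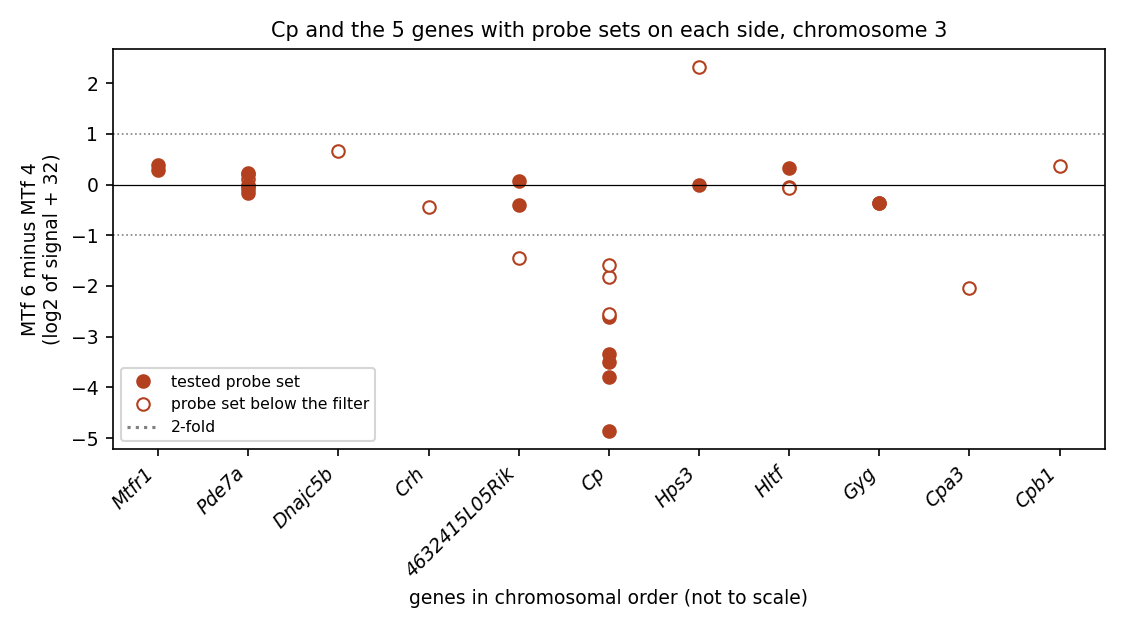
Log2 difference between the clones, MTf 6 minus MTf 4 on log2(signal + 32), for every probe set of Cp and of the 5 genes with probe sets on each side of it, in chromosomal order and not to scale; filled points were tested, open points were below the filter, dotted lines mark 2-fold. All 8 Cp points lie between -4.86 and -1.58, and all filled points of the neighbours lie between -0.40 and 0.38.

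A stretch each of the Cp and Hamp promoter windows is shown because it holds all motif matches found there. RefSeq windows of 300 bases, 250 before and 50 after a transcription start, were at hand for 3 members (GRCm38.p6): 2 windows for Cp, 1 for Hamp and 1 for Hephl1. They were searched on both strands for ACGTG and GCGTG (hypoxia response cores), TGACNNNGC (antioxidant response core) and TGCNCNC (a loose form of the metal response core). Also searched were GGCGCC (the core of the bone morphogenetic protein response element of hepcidin promoters) and TTCNNNGAA (STAT site). The Cp stretch, chr3:19956952-19956981 on the plus strand, holds both matches to TGCNCNC, in capitals, one of them on the other strand. It lies in the first Cp window, just inside the annotated gene, which has an earlier start, and the second Cp window has 0 matches. The Hamp stretch, chr7:30944091-30944150 on the minus strand, holds the match to GGCGCC and the match to TTCNNNGAA, in capitals.
Cp: GGGAGCAtttagagatggtctcTGCCCTCc
Hamp: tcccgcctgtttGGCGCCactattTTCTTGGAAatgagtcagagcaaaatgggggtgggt

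The usual metal response core is stricter than TGCNCNC, with A or G at the first N, which neither Cp match has. TGCNCNC itself is common: 51.0% of 32851 promoter windows held it. GGCGCC was in 11.9% of them and TTCNNNGAA in 8.30%. The hypoxia cores, in 19.6% (ACGTG) and 32.4% (GCGTG) of all windows, and the antioxidant core, in 12.4%, had 0 matches in the windows of Cp, Hamp and Hephl1, which says only that these letters are not there. The Hamp matches begin 109 and 97 bases before the start site.

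The genes whose pattern over the 4 lines was most like that of Cp were ranked by the Euclidean distance between log2 profiles. Each profile was taken as deviations from its own mean, and the mean profile of the 5 tested Cp probe sets stood at -0.27 (vector 1), 1.07 (vector 2), 1.41 (MTf 4) and -2.21 (MTf 6). A flat profile would lie at a distance of 2.84, and the tested Cp probe sets themselves lay between 0.22 and 1.00. The nearest was Bche, butyrylcholinesterase, at 0.62, with signals of 878 (vector 1), 1328 (vector 2), 2040 (MTf 4) and 193 (MTf 6). Slpi, a secreted inhibitor of leukocyte proteases, followed at 0.68 (2407, 5412, 6647 and 948), and Isoc2b at 0.71 (211, 761, 750 and 82.9). Dpt, the matrix protein dermatopontin, lay at 0.76 (1212, 1834, 1903 and 196).

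The remaining genes of the nearest 8 were Pcdhb15, a protocadherin, at 0.82, Zmym3, a zinc finger protein, and Mndal, of the interferon-inducible p200 family, both at 0.83, and Mageb3 at 0.86. Where these genes had other tested probe sets, those gave the same direction between the clones, with log2 differences of -3.15 and -2.17 for Bche, -2.81 for Mndal, -0.93 for Pcdhb15 and -1.81 to -0.43 for the 3 of Zmym3. The ranking was over 10704 genes and only 4 lines, and it is a description without a test. Bche also lies on chromosome 3, and the other 7 on other chromosomes.

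Genes that supply copper to the multicopper oxidases differed little. Of 10 measured, the MTf mean was above the vector mean for 5 and below it for 5. The median log2 difference was -0.03, against -0.005 over all 10706 measured genes. Of the 10, 0 passed limma's threshold in either direction, as did 0 of all 10706. A count of 0 calls in this list or the later ones therefore says nothing particular about its genes. Slc31a1, the copper importer, was at 2395, 1943, 1660 and 2554 in vector 1, vector 2, MTf 4 and MTf 6. Atp7b, which loads copper onto ceruloplasmin in the liver, was at 266, 305, 216 and 334, and Mt1, metallothionein 1, at 52376, 50111, 66024 and 59370. None of the 10 differed 2-fold between the clones, where 5.38% of all measured genes did. Slc31a1 RNA was highest in MTf 6, and a link between it and Cp RNA was not tested.

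Genes that control hepcidin were measured in 17 of 22 cases, with MTf means above the vector mean for 8 and below it for 9. The median log2 difference was -0.02 and 0 were called (0 of all 10706 measured genes). Id1, a target of bone morphogenetic protein signalling, was at 2126, 868, 737 and 1545 in vector 1, vector 2, MTf 4 and MTf 6, so it was higher in vector 1 than in vector 2 and higher in MTf 6 than in MTf 4, the reverse of Cp in both pairs. Stat3, which carries the interleukin-6 signal, was at 3322, 3885, 4874 and 2379, with the order of Cp. Tmprss6, a protease that restrains hepcidin, was at 167, 345, 371 and 204. Acvr2a, an activin receptor, was higher in both MTf lines, at 2207 and 2139 against 1637 and 1598, without passing (limma, adjusted p = 1.00). Il6ra, the interleukin-6 receptor, was at 690, 556, 441 and 548.

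Genes that act on ferroportin RNA or protein gave no call, as was so for all 10706 measured genes. Of 15 measured, 7 had the larger MTf mean and 8 the smaller, 0 were called, the median log2 difference was -0.03, and 0 differed 2-fold between the clones. Aco1, iron regulatory protein 1, which binds iron-responsive elements in messages such as that of ferroportin, was at 10827, 9634, 7406 and 11503 in the order vector 1, vector 2, MTf 4 and MTf 6. Mtf1, the metal-sensing transcription factor that reads metal response elements, was at 699, 606, 571 and 841. Arnt, the partner of the hypoxia-inducible factors, was at 1415, 1183, 1491 and 2160, and Pcbp2, an iron chaperone, at 18785, 17730, 22146 and 21217.

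Genes of iron uptake, reduction and storage were measured for 10 of 14, and the MTf mean was the larger for 2 and the smaller for 8. Over all 10706 measured genes it was the larger for 5247 and the smaller for 5459, and the split of the list was not tested. The median log2 difference was -0.11, with 0 called (0 of all measured genes). Tfrc, the transferrin receptor, was at 8069, 5312, 4948 and 8511, and Steap1, a metalloreductase, at 4190, 1509, 1971 and 4762. In both, vector 1 and MTf 6 were the high lines. Over the list 4 of 10 were, like these, the reverse of Cp in both pairs of lines (27.9% of all measured genes), and 3 of 10 were as Cp in both (35.7% of all). Slc11a2, the importer DMT1, was among the latter, at 897, 1049, 935 and 663. Flvcr1, a heme exporter, was lower in both MTf lines, at 2368 and 2533 against 4214 and 2965 (limma, adjusted p = 1.00). Ncoa4, the receptor for ferritin degradation, was at 8526, 9054, 7909 and 6890.

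Targets of hypoxia-inducible factors, among which ceruloplasmin is counted, often differed within both groups in the direction of Cp. Their full order of the lines was not always that of Cp. Of 12 measured 9 were higher in vector 2 than in vector 1 and also higher in MTf 4 than in MTf 6, which held for 35.7% of all measured genes, and MTf 6 was the lowest line for 8 of the 12, against 29.2% of all measured genes. Car9, a carbonic anhydrase, was at 509 (vector 1), 2280 (vector 2), 1856 (MTf 4) and 640 (MTf 6). Bnip3, a mitophagy receptor, was at 1907, 5299, 4083 and 1912. For both, vector 1 and MTf 6 were nearly equal, whereas for Cp MTf 6 was far below vector 1. Adm, adrenomedullin, was at 1086, 1293, 1669 and 825. The genes of this list share the same arrays, and no test was made of their order.

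Between the groups 2 of the 12 hypoxia targets had the larger MTf mean and 10 the smaller. Over all 10706 measured genes it was the larger for 5247 and the smaller for 5459. The split of the list was not tested, and its genes share the same arrays. The median log2 difference was -0.08, with 0 calls (0 of all measured genes). Egln3, an oxygen-sensing prolyl hydroxylase, had the smallest p of the list: it was at 800 and 1320 in the vector lines and 585 and 410 in the MTf lines, a log2 difference of -1.02 (SE 0.31, unadjusted p of 0.0122; limma, adjusted p = 1.00). Ankrd37 was at 414 and 746 against 383 and 337.

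Acute phase and inflammatory genes, a class to which ceruloplasmin belongs, moved in no common direction. Of 8 measured, 3 had the larger MTf mean and 5 the smaller, the median log2 difference was -0.12, and 0 were called (0 of all measured genes). Of the 8, 4 ordered the lines within both groups as Cp did, against 35.7% of all measured genes. Between the clones 25.0% differed 2-fold, 1 gene in each direction, against 5.38% of all measured genes. Cebpd, a transcription factor of the acute phase response, was at 1042, 1238, 2674 and 990 in vector 1, vector 2, MTf 4 and MTf 6, with MTf 4 alone high. Ccl2, a chemokine, ran the other way, at 2152, 1015, 360 and 1150. Il1r1, an interleukin-1 receptor, was at 409, 467, 343 and 564, and Socs3, a feedback inhibitor of cytokine signalling, at 992, 588, 461 and 496. Lcn2, Hp, Orm1, Cfb and Serpina3n were under the filter.

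**Figure D5:**
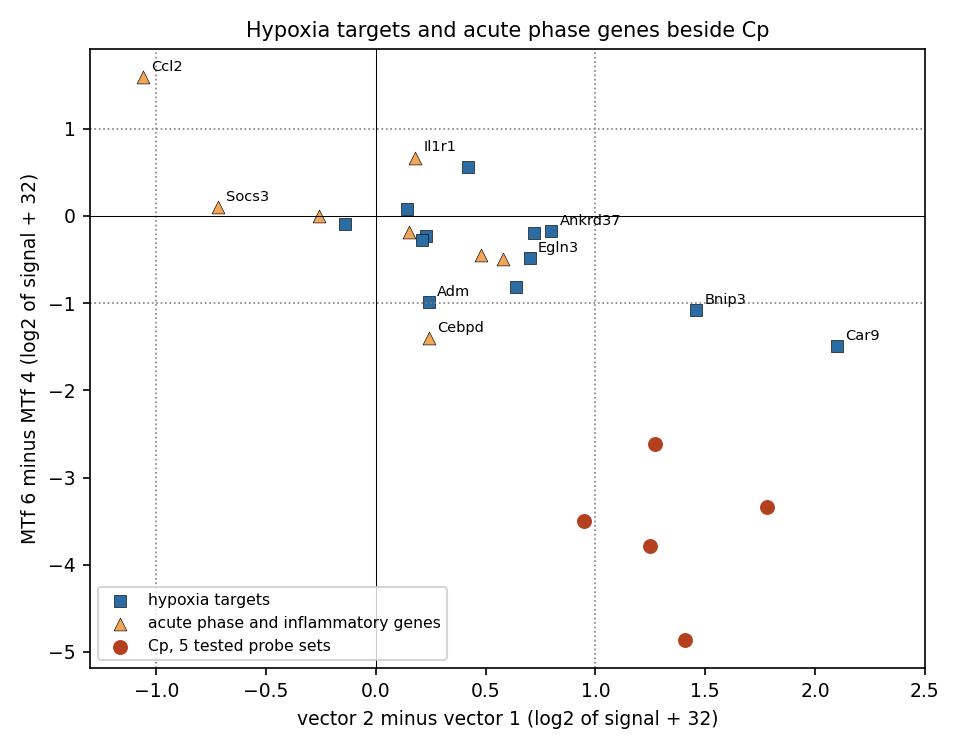
Log2 differences between the vector lines (x axis, vector 2 minus vector 1) and between the MTf clones (y axis, MTf 6 minus MTf 4), on log2(signal + 32), for the 12 measured hypoxia targets (squares), the 8 measured acute phase and inflammatory genes (triangles) and the 5 tested Cp probe sets (circles); dotted lines mark 2-fold. Of the squares 9 lie at the lower right with the circles, Car9 and Bnip3 farthest out at y values of -1.49 and -1.08, and Ccl2 lies at the upper left.

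Interferon-gamma is known to silence the translation of ceruloplasmin mRNA in myeloid cells through a complex that holds a glutamyl-prolyl tRNA synthetase (Eprs), ribosomal protein L13a (Rpl13a) and other proteins. Of its genes 4 were measured, and the MTf mean was the larger for 3 and the smaller for 1. The median log2 difference was 0.16, with 0 called (0 of all measured genes). Eprs was at 7921, 8830, 8677 and 9367 and Rpl13a at 65950, 66038, 81794 and 72188 in vector 1, vector 2, MTf 4 and MTf 6. Syncrip, an RNA-binding protein of the complex, was at 8668, 6669, 5665 and 7062, and the kinase gene Dapk3 at 2703, 2303, 2996 and 3061. Translation itself was not measured here. F8, coagulation factor VIII, which shares the domain fold of ceruloplasmin, was at 1179, 1344, 1013 and 855, a log2 difference of -0.42 (SE 0.22; limma, adjusted p = 1.00), and F5 was under the filter.

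Markers of other cell types that make ceruloplasmin were compared with the Cp pattern. Of 6 macrophage markers on the array 4 passed the filter, and the summed signal of all 6 was 1990 (vector 1), 1701 (vector 2), 2319 (MTf 4) and 1406 (MTf 6). Ptprc, which defines leukocytes, was between 7.3 and 88.8. Of 4 astrocyte markers 2 passed, Gfap and Aldoc, and the summed signals of all 4 were 1030, 1273, 1401 and 762 in the same order. Aldoc, a glycolytic aldolase, was at 385, 798, 963 and 249, whereas Gfap was at 427, 221, 233 and 329. Both sums were lowest in MTf 6, as Cp was, but the single markers were not all lowest there. Aldoc, Ptprc, Cd68 and Csf1r were lowest in MTf 6. Gfap and Lyz2 were lowest in vector 2, Aqp4 and Tyrobp in vector 1, and Slc1a2 and Adgre1 in MTf 4. The part of these markers in the Cp difference was not tested. Of 4 enterocyte markers 0 passed, with summed signals between 207 and 321.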

How the data were processed

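Each deposited array column holds a scaled intensity for every probe set, not log-transformed, and the submitters' processing notes name GCOS 1.3. Detection calls were left unused. The 64 control probe sets were left out. The platform annotation paired 34945 probe sets with 1 gene, 932 with several and 9160 with none listed. Of the first, 34741 were found in the RefSeq gene table of GRCm38.p6, which gave current symbols and positions.

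MTf minus vector was fitted with limma 3.58.1 in R 4.3.3 (lmFit, eBayes with a trend) on log2(signal + 32) of all 4 arrays. Benjamini-Hochberg adjustment ran over the 22519 probe sets tested, at a threshold of 0.05. Members below the filter have values from the same fit without the filter, over 45037 probe sets. The fit was tested on simulated data. With 2 arrays a group an exact permutation test cannot go below p = 0.333, and a p-value reflects just the spread among these lines, which for the vector lines may be technical. Differences between 2 lines have no test. The number of arrays limits every precision.

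A gene in a list was read from its probe set with the highest mean. Named genes were all members, Meltf, the 10 neighbours of Cp, the 8 genes nearest to its profile and, of each list, up to 3 with the largest clone difference and 2 with the smallest p. Members and lists were chosen with earlier results of these data known. The GGCGCC and TTCNNNGAA motifs were added after the windows were seen. Listed genes without a probe set naming only them were not analysed here. Alternatives were other offsets (16, 64 and 1), no filter or one at 100, quantile normalization, median centring, no trend and leaving out each array.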

Additional observations from a re-analysis of the deposited data

How the results depend on the processing

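No paired analysis was possible because the groups share no line number. The signs of the clone and vector differences of Cp held with each offset and normalization tried, and sizes moved with the offset. The median clone difference over the 8 Cp probe sets, -2.98 with the offset of 32, was -3.39 at 16, -2.74 at 64 and -3.90 at 1. The median of MTf 6 against the mean of the other lines, -2.34, was -2.71 at 16 and -3.29 at 1. Between the groups, calls over all tested probe sets went from 1 to 0 without the filter and to 0 without the trend. With 1 array left out they lay between 1 and 21, member calls between 0 and 1 and the median Cp difference between -2.45 and 1.04. Leaving out 1 array left its group with 1 line, and several Cp probe sets then changed sign. Without MTf 6 that line is MTf 4, and without vector 2 it is vector 1. Without MTf 6 the log2 differences were 1.15 (1417494_a_at), 0.91 (1417495_x_at), 0.80 (1417496_at), 1.13 (1448734_at) and 1.04 (1455393_at). Below the filter they were 0.06 (1441326_at), 0.77 (1448735_at) and -0.19 (1417497_at, which kept its sign), and for Heph -0.004. Without MTf 4 the tested ones included -3.71 (1417494_a_at), -2.88 (1417495_x_at), -1.81 (1417496_at) and -2.21 (1448734_at). Without vector 2 the Cp probe sets that changed sign were at 0.13 (1417496_at), 0.35 (1448734_at), 0.14 (1441326_at) and 0.09 (1448735_at). The others stayed negative, at -0.58 (1417494_a_at), -0.36 (1417495_x_at), -0.23 (1455393_at) and -0.60 (1417497_at). Values of probe sets below the filter come from fits without it and, with another choice changed too, were added after the data were seen. There Slc40a1 1417061_at kept its sign, with log2 differences from 1.10 to 2.52 and adjusted p-values from limma of 0.707 to 1.00. For members below the filter both the offset and the choice of arrays moved the sizes.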

Other observations

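Of 358 genes with at least 5 tested probe sets, 2 had every one at least 2-fold lower in MTf 6 than in MTf 4, Cp and Ppargc1a. Cp had been chosen on this contrast, so nothing is read from its place in the count. Probe sets of 1 gene read the same RNA and are not replicates. Ppargc1a, a coactivator of mitochondrial biogenesis that was singled out after its values were seen, had 5 tested probe sets. Their log2 differences between the clones lay between -1.51 and -1.17. Its probe set 1460336_at was at 5063 (vector 1), 5912 (vector 2), 7778 (MTf 4) and 2886 (MTf 6). Unlike Cp it was nearly level between the vector lines, with log2 differences from -0.29 to 0.22. Pdgfra, a growth factor receptor of fibroblasts from the marker list, was at 1032, 1530, 2464 and 671 in vector 1, vector 2, MTf 4 and MTf 6, and Col3a1, a fibrillar collagen of the same list, was at 9541, 6420, 9768 and 4414. Both were lowest in MTf 6, but no other gene of that list was. Col1a1, Col1a2 (30005 in MTf 6, against 24406 to 30047 in the other lines), Vim and S100a4 were lowest in vector 1. Pdgfrb was lowest in MTf 4, and Thy1, Dcn and Lum, all under the filter, in vector 2.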
